A study of Mus musculus with 6 samples.

Results

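The genes described here are the HOX cluster genes, the homeobox genes named *Hoxa*, *Hoxb*, *Hoxc* or *Hoxd* with a number. They were taken by their symbols from the deposited expression table, in which 24 of the 21065 rows carried such a symbol. Of these, 10 belong to HOXA, 8 to HOXB, 4 to HOXC and 2 to HOXD. The other 15 HOX genes known to RefSeq, among them *Hoxa11*, *Hoxb3*, *Hoxc9*, *Hoxc10* and most of HOXD, were not analysed here.

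The 6 samples were cell lines grown out of liver tumors of C57BL/6 mice. The tumors had been started by hydrodynamic transfection, in which plasmid is forced into liver cells through the tail vein. Every animal received a *Myc* transposon together with a px330 plasmid encoding Cas9 and a guide RNA. The guide targeted *Trp53* (labelled sgp53) in 3 lines, here *Myc*; sg*Trp53*, and *Kmt2c* (labelled sgMll3) in the other 3, here *Myc*; sg*Kmt2c*. No line received a further treatment. Neither genotype was left with both genes intact, the lines within a genotype were not isogenic, and the cultures were passaged until they looked free of fibroblasts, so each line is a selected culture and not a whole tumor. By the study's methods the animals were young adult females. P-values measure the spread between these 3 and 3 lines. In bulk RNA such as this, fewer cells expressing a gene and less RNA per cell cannot be told apart.

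HOX genes encode homeodomain transcription factors that give cells their position along the head-to-tail axis of the embryo. They sit side by side in 4 clusters, and within a cluster the low-numbered genes act further forward and the high-numbered genes further back. After development the pattern is held in place by opposing chromatin regulators: MLL1 complexes and DOT1L keep HOX genes active, and Polycomb complexes keep them silent. KMT2C (MLL3), a histone methyltransferase of the same family as MLL1 that is best known for acting at enhancers, was the target of the guide in the second genotype. The study proposes that in *Myc*-driven liver cancer it can bind promoters as well. The question put to the table was whether HOX transcripts differed between the genotypes, cluster by cluster and by position.

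The deposited values are RPKM, reads per kilobase of transcript in a library scaled to 1000000 reads on genes. Because they come in whole steps, the number of reads behind each value could be recovered, and both are given. The libraries held 3680068 to 6878625 reads on genes, with every *Myc*; sg*Trp53* library deeper than every *Myc*; sg*Kmt2c* library. For a transcript of 2 kb, 1 read was worth 0.0726 to 0.136 RPKM, and the 3 reads taken as the limit that a count of 0 allows were worth 0.218 to 0.407 RPKM. As a check of the labels, *Trp53* itself was at 17.2, 17.6 and 19.4 RPKM under its own guide and at 92.2, 124 and 121 RPKM under the *Kmt2c* guide (log2 difference 2.56, standard error 0.19, adjusted p = 0.0140, limma). *Kmt2c* RNA was 20.6 ± 3.2 RPKM against 18.1 ± 7.9 RPKM (SD, n = 3 each) with overlapping lines (adjusted p = 0.819, limma), so its level does not mark the edited lines. The *Kmt2c* guide can leave a heterozygous edit, and the edits themselves were not read here.

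To show the promoters of HOX genes with reads, 4 windows are printed, each from 250 bases before to 50 bases after the RefSeq start site, 5′ to 3′ on the strand of the gene. *Hoxa5* and *Hoxa10* stand for the HOXA genes read in a *Myc*; sg*Kmt2c* line, with 5 reads each, and *Hoxb4* for the HOXB genes with reads in *Myc*; sg*Trp53* lines. In these 3 windows CG dinucleotides are in capitals. *Hoxb8* is shown for its matches to a CDX motif, described with *Cdx2* further on, and there the capitals mark those matches. The windows lie at chr6:52204538-52204837 (minus strand), chr6:52240805-52241104 (minus strand), chr11:96318017-96318316 (plus strand) and chr11:96281655-96281954 (plus strand) of GRCm38.p6.
Hoxa5: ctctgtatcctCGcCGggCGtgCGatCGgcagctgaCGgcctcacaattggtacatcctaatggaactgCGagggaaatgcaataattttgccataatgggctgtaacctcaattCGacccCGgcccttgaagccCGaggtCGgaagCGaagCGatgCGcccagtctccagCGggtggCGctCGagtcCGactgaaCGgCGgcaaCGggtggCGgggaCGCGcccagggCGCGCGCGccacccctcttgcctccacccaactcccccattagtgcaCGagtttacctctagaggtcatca
Hoxa10: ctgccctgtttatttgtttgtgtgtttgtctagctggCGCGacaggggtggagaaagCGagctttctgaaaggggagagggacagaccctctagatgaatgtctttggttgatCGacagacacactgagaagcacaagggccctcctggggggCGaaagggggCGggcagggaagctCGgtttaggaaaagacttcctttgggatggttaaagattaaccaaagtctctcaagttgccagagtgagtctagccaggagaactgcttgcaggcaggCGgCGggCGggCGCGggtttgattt
Hoxb4: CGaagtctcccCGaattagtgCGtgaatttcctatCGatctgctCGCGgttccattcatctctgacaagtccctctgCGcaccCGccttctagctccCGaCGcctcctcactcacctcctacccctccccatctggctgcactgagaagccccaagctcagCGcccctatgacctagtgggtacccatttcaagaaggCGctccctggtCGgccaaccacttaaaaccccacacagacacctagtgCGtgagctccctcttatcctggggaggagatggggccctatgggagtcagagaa
Hoxb8: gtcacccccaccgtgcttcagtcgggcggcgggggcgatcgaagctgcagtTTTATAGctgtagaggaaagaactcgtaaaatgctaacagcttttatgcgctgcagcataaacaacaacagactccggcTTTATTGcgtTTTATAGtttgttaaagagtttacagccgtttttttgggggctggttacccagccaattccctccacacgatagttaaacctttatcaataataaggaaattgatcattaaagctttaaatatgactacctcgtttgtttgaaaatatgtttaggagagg

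RefSeq windows were found for 13 of the 24 HOX genes, and 9 of them started within 100 bases of the 5′ end of the listed gene. The printed windows hold 29 CG dinucleotides for *Hoxa5*, 12 for *Hoxa10*, 14 for *Hoxb4* and 13 for *Hoxb8*. Over the 13 windows the ratio of observed to expected CpG ranged from 0.28 to 1.02 with a median of 0.596, and 46.2% exceeded 0.6, a usual threshold of this ratio for a CpG island. *Hoxa2*, *Hoxb4* and *Hoxa10* lay just under it, at 0.589, 0.593 and 0.596, so the share depends on the exact threshold. GC content was not part of it. The same share was 77.9% among 8525 windows of genes that passed the expression filter and 25.4% among 3285 windows of other genes with at most 6 reads in every library. The HOX windows therefore lay between these sets, also by the median ratio, which was 0.793 and 0.326 in them. *Hoxa5*, *Hoxb8*, *Hoxa6*, *Hoxa13* and *Hoxd13* were above 0.9, *Hoxb8* with a GC content of 42.3%, and *Hoxa9*, *Hoxc4* and *Hoxd8* under 0.4. The windows of *Hoxa3*, *Hoxa7*, *Hoxa9* and *Hoxc4* lay 269, 3281, 3719 and 15461 bases inside the listed gene, at another start than its 5′ end. Among the 9 windows at the 5′ end, 5 (55.6%) exceeded 0.6. These shares describe the windows and were not tested.

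**Figure D1:**
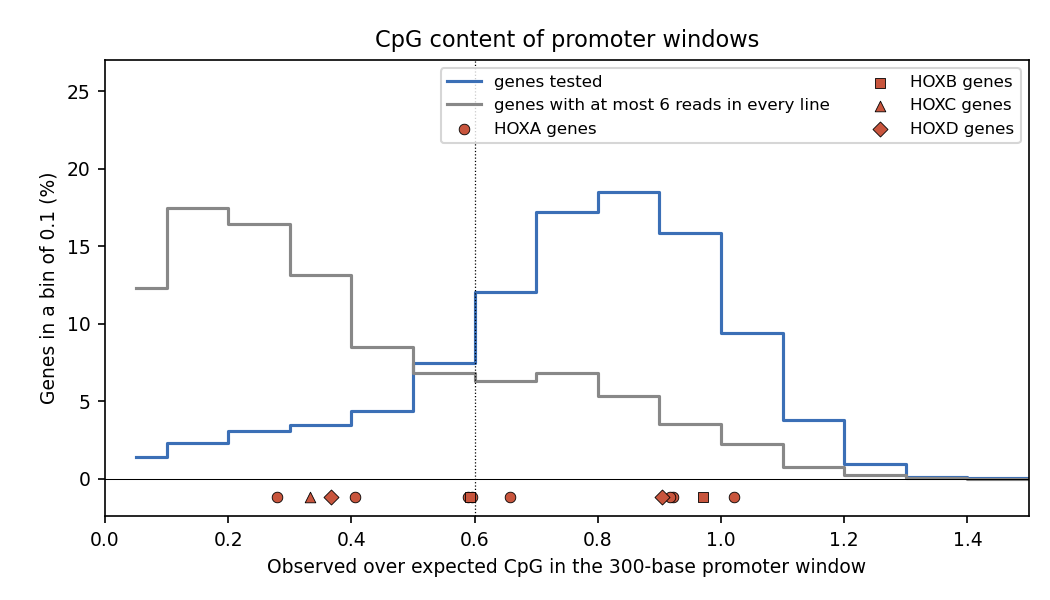
The horizontal axis is the observed over expected CpG ratio of the 300-base promoter window and the vertical axis the percentage of genes in each bin of 0.1. Lines show genes that passed the expression filter and genes with at most 6 reads in every line, markers under the axis show the 13 HOX genes by cluster, and the dotted line is at 0.6. HOX windows spread from 0.28 to 1.02, over the range of both curves.

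HOX transcripts were close to the detection limit in every line. Of the 144 values (24 genes in 6 lines) 113 were 0, 11 were a lone read, 10 were 2 reads and 10 were 3 reads or more. The highest was 6 reads, for *Hoxa3* in *Myc*; sg*Kmt2c* replicate 2. No HOX gene reached 10 reads or an RPKM of 1 in any line, whereas 64.3% of all genes with values reached an RPKM of 1 in at least 1 line. The highest HOX RPKM, 0.974 for *Hoxd8*, came from 2 reads on a listed transcript of 557 bases, the shortest of the set. Such low counts were common in the table, since 34.2% of all genes had at most 6 reads in every library, while the median gene that passed the filter had 130 to 253 reads. A read was found somewhere for 20 of the 24 genes. *Hoxa4*, *Hoxb2*, *Hoxb5* and *Hoxd13* were at 0 in all 6 lines, which at this depth is not the same as absent.

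**Figure D2:**
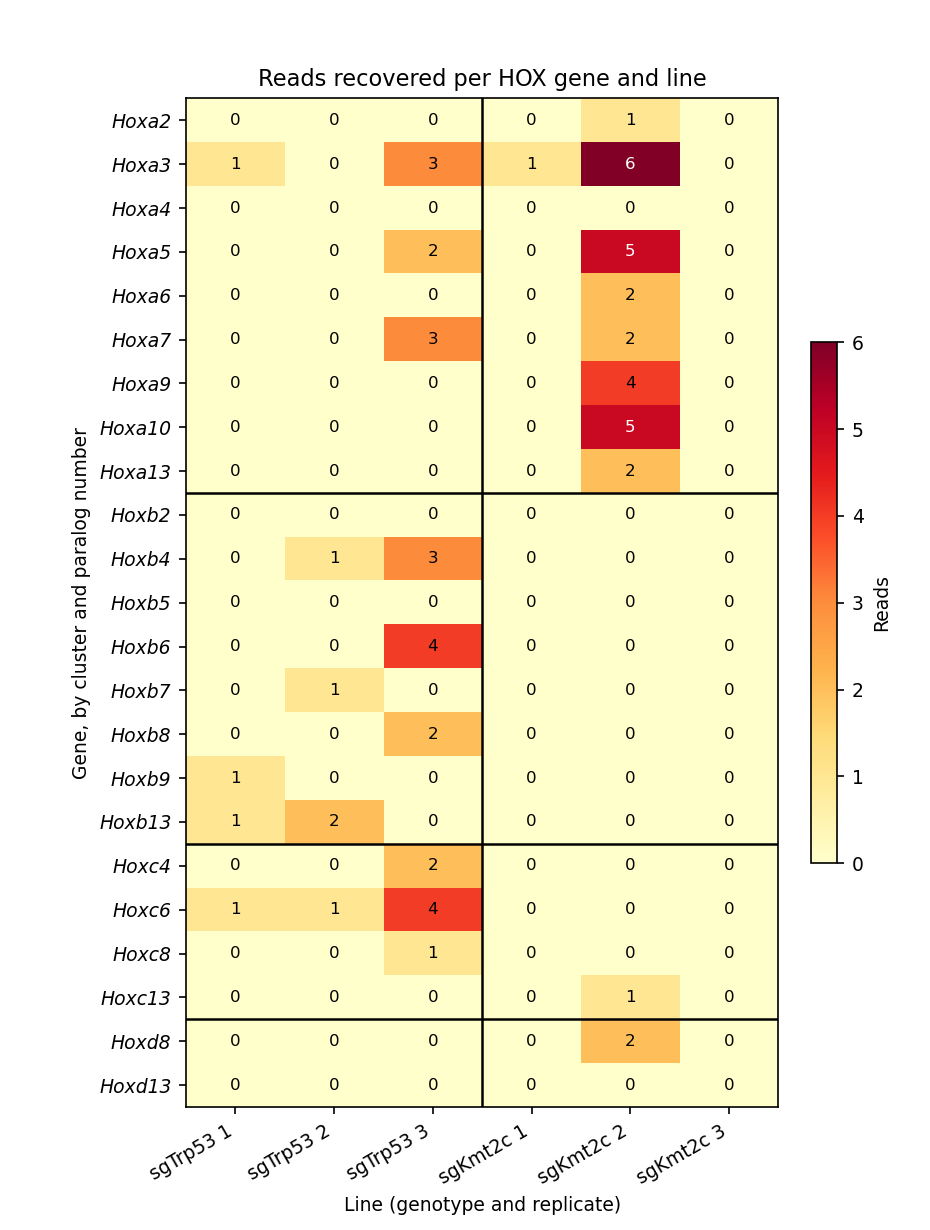
Reads recovered from RPKM for each HOX gene reported singly (vertical axis, by cluster and paralog number) in each of the 6 lines (horizontal axis), with the count printed in each cell and shown by colour from 0 to 6. Reads lie mainly in the columns of sgTrp53 replicate 3 and sgKmt2c replicate 2.

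The reads were unevenly spread over the lines and the genotypes overlapped. Summed over the 24 genes, the *Myc*; sg*Trp53* lines had 4, 7 and 26 reads and the *Myc*; sg*Kmt2c* lines 1, 34 and 0. As RPM, reads in a library scaled to 1000000 reads on genes, these were 0.657, 1.32 and 3.78 against 0.213, 9.24 and 0. Both the highest and the lowest line were thus *Myc*; sg*Kmt2c* lines, and the interval of the highest (6.40 to 12.9 RPM, exact Poisson, 95%) lay above that of the next (2.47 to 5.54). Intervals cover counting error only. In replicate 3 of that genotype, 0 reads allow up to 0.703 RPM. Pooled over lines the genotypes had 37 and 35 reads.

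HOXA (chr6:52155590-52260880, GRCm38) held 45 of these reads, and 1 line had reads for nearly all of its genes. In *Myc*; sg*Kmt2c* replicate 2, 9 of the 10 HOXA genes had a read, from the low-numbered end of the cluster to *Hoxa13* at the other, 31 reads in all and 91.2% of that line's HOX reads. The other *Myc*; sg*Kmt2c* lines had 1 and 0 HOXA reads. *Hoxa3*, a gene of neck and throat development, had 1, 0 and 3 reads in the *Myc*; sg*Trp53* lines and 1, 6 and 0 in the *Myc*; sg*Kmt2c* lines (0.0786, 0 and 0.209 RPKM against 0.102, 0.781 and 0). *Hoxa5*, needed for lung and airway formation, had 0, 0 and 2 against 0, 5 and 0 reads. For *Hoxa10*, which patterns the lumbar spine and the uterus, the counts were 0, 0 and 0 against 0, 5 and 0. The related *Hoxa9*, a leukemia oncogene and a well known MLL1 target, had 4 reads and *Hoxa13*, active in the most distal limb, 2 reads, in that same line only. *Hoxa7* was the HOXA gene whose highest count, 3 reads, came from a *Myc*; sg*Trp53* line, replicate 3. Scaled for depth, that was 0.214 RPKM, below the 0.267 RPKM from 2 reads in *Myc*; sg*Kmt2c* replicate 2. *Hoxa2* and *Hoxa6* had 1 and 2 reads, all in *Myc*; sg*Kmt2c* replicate 2.

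Pooled over lines HOXA had 0.711 RPM in *Myc*; sg*Trp53* (interval 0.379 to 1.22) and 2.53 in *Myc*; sg*Kmt2c* (interval 1.73 to 3.57). That order rested on 1 library: without *Myc*; sg*Kmt2c* replicate 2 the second value was 0.111 (interval 0.00282 to 0.621), below the first. The noncoding RNA *Hotairm1*, transcribed within HOXA, had 0, 1 and 3 reads against 1, 7 and 0. Its highest count was again in that line. *Hoxa3* overlaps *Hoxa4*, *Hoxa5*, *Hoxa6* and noncoding genes by their listed coordinates. These coordinates span whole genes, introns included, and by them in all 7 HOX genes overlapped another listed gene. *Hoxa3*, *Hoxa5* and *Hoxa6* lie on the same strand, so strand would not separate their reads. The library kit did not mark strand, so reads of stretches shared with a gene on the other strand cannot be told apart either.

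HOXB (chr11:96194316-96354012, GRCm38) had reads in every *Myc*; sg*Trp53* line and in 0 of the *Myc*; sg*Kmt2c* lines. The *Myc*; sg*Trp53* lines had 2, 4 and 9 HOXB reads and the *Myc*; sg*Kmt2c* lines had 0, 0 and 0. In RPM these were 0.328, 0.753 and 1.31 against 0 in each, where 0 allows up to 0.638, 0.815 and 0.703. Hence only the values of *Myc*; sg*Trp53* replicates 2 and 3 exceeded the lowest of these limits. Pooled, 0.821 RPM (interval 0.459 to 1.35) stood against a limit of 0.237 from 3 reads over the *Myc*; sg*Kmt2c* lines. The *Myc*; sg*Trp53* value was 3.46 times that limit. This ratio leaves out the counting error of the value itself and the spread between lines, so it is not a smallest fold difference. Without *Myc*; sg*Trp53* replicate 3 the value was 0.526 and the ratio 2.22. Without *Myc*; sg*Kmt2c* replicate 1 or 3 the ratio was 2.17 or 2.29. Over the 6 ways of leaving out a line it ranged from 2.17 to 4.50. The cluster was singled out after its values were seen, as 1 of 4, and the sum was not tested.

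No HOXB gene had reads in all 3 *Myc*; sg*Trp53* lines. *Hoxb4*, known for expanding blood stem cells, had 0, 1 and 3 reads, and *Hoxb6* had 0, 0 and 4. *Hoxb13*, a gene of the tail bud and prostate at the far end of the cluster, had 1, 2 and 0. *Hoxb7*, *Hoxb8* and *Hoxb9* had 1, 2 and 1 reads in a line each. Thus *Hoxb4* and *Hoxb13* were each seen in 2 lines and the other 4 genes in 1.

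HOXC (chr15:102921103-103036852, GRCm38) had 1, 1 and 7 reads in the *Myc*; sg*Trp53* lines and 0, 1 and 0 in the *Myc*; sg*Kmt2c* lines. *Hoxc6*, a gene of the thoracic region, had 1, 1 and 4 reads (0.183, 0.210 and 0.648 RPKM) against 0, 0 and 0. Among the 24 genes it was the 1 whose genotypes did not overlap, on counts of 1 to 4 reads. Its exact two-sided permutation test gave p = 0.1, the smallest that 3 against 3 lines can give. Among all genes whose highest library had 1 to 6 reads, the genotypes did not overlap in 5.44%, with *Myc*; sg*Trp53* higher in 3.57%. *Hoxc4* and *Hoxc8* had 2 and 1 reads in *Myc*; sg*Trp53* replicate 3, and *Hoxc13* 1 read in *Myc*; sg*Kmt2c* replicate 2. HOXD was represented by 2 genes (together spanning chr2:74668310-74707933, GRCm38, only part of the cluster) and had 2 reads in all, both of *Hoxd8* in *Myc*; sg*Kmt2c* replicate 2.

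**Figure D3:**
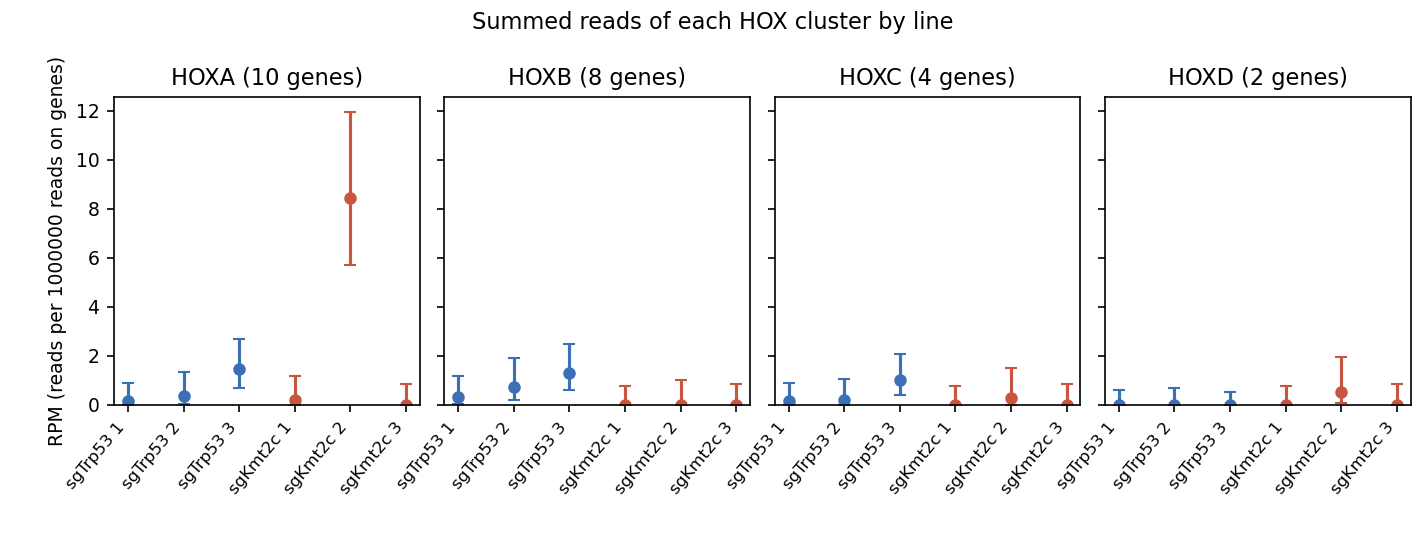
The vertical axis is RPM, reads in a library scaled to 1000000 reads on genes, summed over the listed genes of each HOX cluster, for the 6 lines on the horizontal axis. Points are single lines and bars exact Poisson 95% intervals. HOXA in sgKmt2c replicate 2 stands at 8.42 RPM, and the 3 sgKmt2c lines are at 0 for HOXB.

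By position, the lines with reads differed in how far along the clusters they went. In paralog groups 1 to 4 (7 genes) the *Myc*; sg*Trp53* lines had 1, 3 and 10 reads and the *Myc*; sg*Kmt2c* lines 1, 11 and 0. The central groups 5 to 8 (10 genes) had 1, 2 and 16 against 0, 11 and 0. In groups 9 to 13 (7 genes) the counts were 2, 2 and 0 against 0, 12 and 0. *Myc*; sg*Trp53* replicate 3 thus had all its 26 reads in groups 1 to 8, over HOXA, HOXB and HOXC, while *Myc*; sg*Kmt2c* replicate 2 had reads over the whole range, almost all of them in HOXA. These are counts of a few reads per line and were not tested.

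No HOX gene could enter the comparison across all genes. The main test, limma on log2(RPKM + 1), took the 11617 genes that reached 1 RPKM in 3 or more libraries. Of the 24 HOX genes 0 met that filter, so no fold change with an adjusted p is given from it. In that test 0.129% of genes passed an adjusted p of 0.05, 8.58% had an unadjusted p under 0.05, and the genotypes did not overlap in 16.2%. With every gene above 0 in at least 1 library kept, 20 HOX genes were among 19183 tested. There 0 HOX genes passed the adjusted threshold by limma, beside 0.0261% of all genes. At an unadjusted p under 0.05 stood 1 HOX gene, *Hoxc6* (log2 difference -0.41, standard error 0.14, adjusted p = 0.596, limma), beside 7.32% of all genes. On this log2(RPKM + 1) scale the 20 differences, *Myc*; sg*Kmt2c* minus *Myc*; sg*Trp53*, ranged from -0.41 for *Hoxc6* to 0.33 for *Hoxd8*, with a median of 0.04 beside -0.05 over all genes. All 9 HOXA differences, and those of *Hoxc13* and *Hoxd8*, were above 0, and the other 9 below. The signs above 0 came from *Myc*; sg*Kmt2c* replicate 2. In the other lines of that genotype only *Hoxa3* among these genes had a read, and it had 1. The pseudocount of 1 compresses such low values, and a difference between the genotypes in a single HOX gene was not detectable at this depth.

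Around the clusters, other genes were transcribed. Edges were taken at the outermost listed genes of each cluster, and HOXB and HOXD genes not listed can lie beyond them. Outside these edges and within 1 Mb of them the table listed 124 other genes, of which 77 (62.1%) reached 1 RPKM in 3 or more lines, beside 55.7% of all genes. The nearest such genes were 76.4 to 199 kb away, except on the high-coordinate side of HOXB, where *Snx11* lay 414 kb off. The nearest one above HOXA, *Gm8129*, rested on 1 to 2 reads a line. Inside HOXB, *Gm11539* also reached 1 RPKM in 3 lines, on 5 reads at most. On the low-coordinate side of HOXA, *Skap2*, a signalling adaptor, was at 7.59 ± 1.21 RPKM against 11.8 ± 4.0 RPKM (SD, n = 3 each). *Atp5g1*, a subunit of the mitochondrial ATP synthase next to HOXB, was at 15.1 ± 3.1 against 14.8 ± 5.3 RPKM. Beside HOXC, *Smug1*, a DNA repair enzyme, was at 9.88 ± 1.28 against 8.86 ± 1.10 RPKM. Beside HOXD, *Mtx2*, of the mitochondrial outer membrane, was at 20.6 ± 3.1 against 20.9 ± 3.7 RPKM. In each case the lines of the genotypes overlapped.

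**Figure D4:**
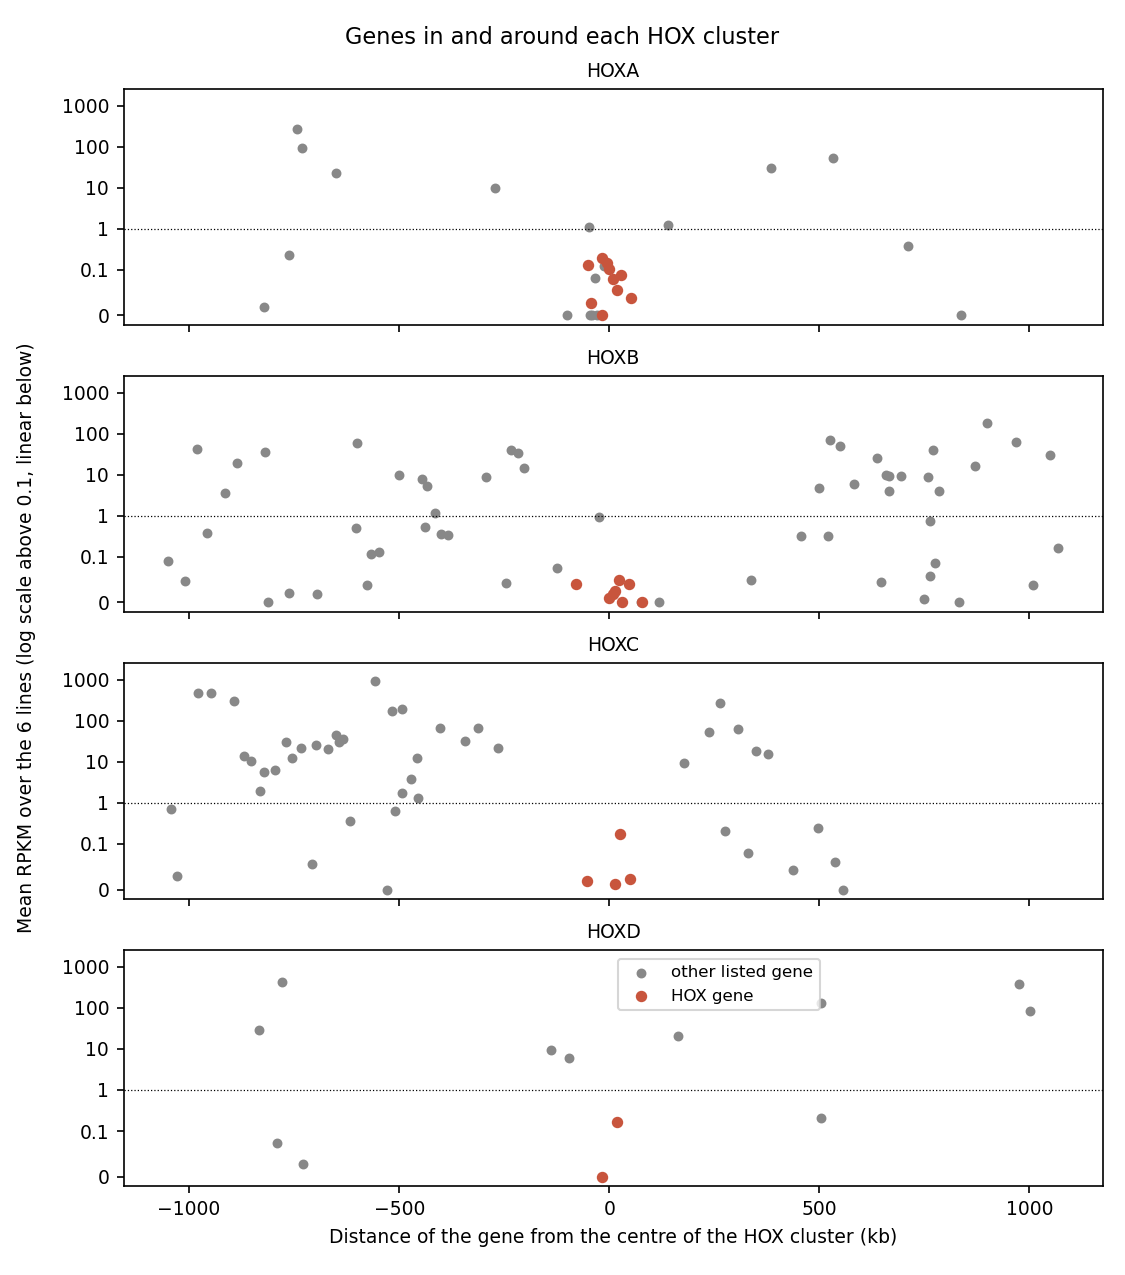
Each panel shows the listed genes within 1 Mb of a HOX cluster, with the distance from the centre of the cluster in kb on the horizontal axis and the mean RPKM over the 6 lines on the vertical axis, which is logarithmic above 0.1 and linear below. Red points are HOX genes, all under the dotted line at 1 RPKM, and grey points other genes, many of them far above it.

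Of a list of 28 genes known to flank the clusters, 26 were in the table and 22 were tested, and 0 passed the adjusted threshold (smallest adjusted p = 0.491, limma). The median log2 difference of those tested was -0.18, beside -0.09 over all genes tested. *Cbx1*, a heterochromatin protein gene on the HOXB side, was at 84.5 ± 7.0 RPKM in *Myc*; sg*Trp53* and 55.7 ± 10.4 RPKM in *Myc*; sg*Kmt2c* (SD, n = 3 each), with no overlap (unadjusted p = 0.0194 from limma, adjusted p = 0.491). *Tax1bp1*, an autophagy receptor near HOXA, was at 44.9 ± 7.9 against 63.3 ± 4.0 RPKM (unadjusted p = 0.0408 from limma, adjusted p = 0.569). The largest differences of the list, for *Chn1* (log2 -1.06, adjusted p = 0.609, limma) and *Igf2bp1* (log2 -0.84, adjusted p = 0.777, limma), came with overlapping lines. For *Chn1* the difference was -0.67 after quantile normalization, -2.24 with a pseudocount of 0.1 and -2.59 with limma voom on the recovered reads. *Igf2bp1*, a fetal RNA-binding protein, had 389, 314 and 875 reads against 466, 319 and 12, so its sign followed the last line. Of 15 noncoding genes of the clusters 5 were listed and 0 tested, with at most 7 reads in any library.

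Most of the partners that HOX proteins bind DNA with were transcribed in every line. All 11 TALE homeobox genes taken as the cofactor list were in the table and 10 were tested. Their summed levels were 184 to 339 RPKM per line, and 0 passed the adjusted threshold (smallest adjusted p = 0.569, limma). The list includes *Tgif1* and *Tgif2*, TALE genes not usually counted as HOX partners. *Tgif1* made up 76.5 of 184 RPKM in *Myc*; sg*Trp53* replicate 1 and 154 of 278 RPKM in *Myc*; sg*Kmt2c* replicate 1. In *Myc*; sg*Kmt2c* replicate 1 only 8 of the 11 had at least 10 reads, and 1 had 0. *Meis2* was at 1.39, 5.18 and 5.13 RPKM against 0.0750, 11.9 and 11.1, down to 1 read in *Myc*; sg*Kmt2c* replicate 1. *Tgif2*, a repressor of TGF-beta target genes, was at 14.9 ± 0.7 against 9.79 ± 2.09 RPKM (log2 -0.58, unadjusted p = 0.0401 from limma, adjusted p = 0.569), and its genotypes did not overlap. *Meis3* and *Pbx3* had the largest differences, log2 0.97 (adjusted p = 0.743, limma) and -0.93 (adjusted p = 0.651, limma), within the spread of their lines. *Meis3* was at 0.22 without *Myc*; sg*Kmt2c* replicate 1 and at 1.97 without its replicate 3, and *Pbx3* at -0.36 without replicate 1. The list median was 0.12, beside -0.09 over all genes tested.

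**Figure D5:**
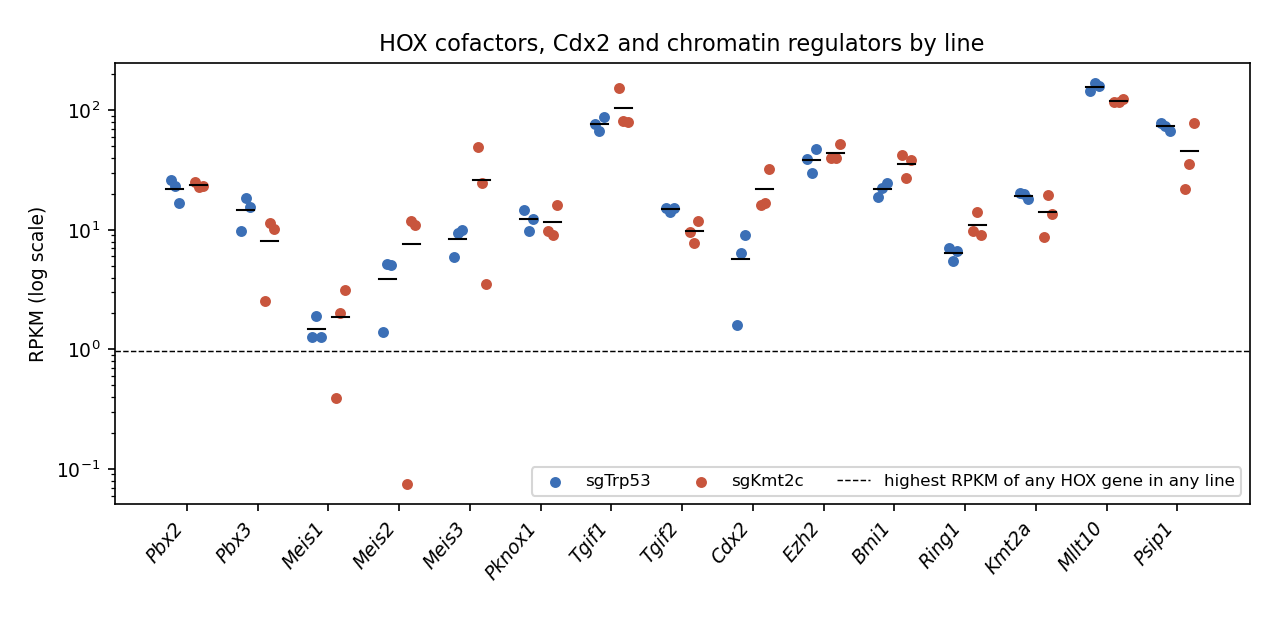
RPKM on a log axis for HOX cofactors and other TALE genes, Cdx2 and chromatin regulators, with 1 point per line, blue for sgTrp53 and red for sgKmt2c, and a bar at the mean of 3 lines. The dashed line is the highest RPKM of any HOX gene in any line, 0.974, and nearly all points lie above it.

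Among homeobox genes linked to the HOX clusters or derived from the sister ParaHox cluster, 8 of 13 were listed and only *Cdx2* was tested. *Cdx2*, a caudal-type factor known for switching on central and posterior HOX genes in the embryo and for intestinal identity, gave 1.60, 6.40 and 8.99 RPKM in *Myc*; sg*Trp53* against 16.1, 16.9 and 32.6 RPKM in *Myc*; sg*Kmt2c* (22, 77 and 140 against 172, 141 and 315 reads). Every *Myc*; sg*Kmt2c* line was higher, but the log2 difference of 1.92 (95% interval 0.60 to 3.23) did not pass adjustment (unadjusted p = 0.0112 from limma, adjusted p = 0.431). In the line with the highest *Cdx2*, *Myc*; sg*Kmt2c* replicate 3, the HOX genes had 0 reads. The letters TTTATNG, a CDX motif, searched on both strands, occurred in 1 of the 13 HOX windows (7.69%), that of *Hoxb8* with 3 matches, and in 8.02% of the 13290 windows of listed genes. TGATNNAT, a PBX-HOX motif, was in 2 HOX windows (15.4%, those of *Hoxa2* and *Hoxb8*) and 4.67% of all. TGACAG, a MEIS motif, was in 2 (15.4%, *Hoxa2* and *Hoxa3*) and 17.3% of all. A match of letters is not a bound site. The remaining genes of this list had at most 9 reads (*En2*, *Myc*; sg*Trp53* replicate 3).

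Both kinds of chromatin regulators of the HOX clusters were well transcribed. All 16 Polycomb subunits were tested, and 0 passed the adjusted threshold (smallest adjusted p = 0.528, limma), with 6 differences above 0, 10 below and a median of -0.08. *Ezh2*, the methyltransferase of the complex PRC2, was at 38.8 ± 8.7 against 44.1 ± 6.8 RPKM (SD, n = 3 each). *Bmi1* and *Ring1*, subunits of the complex PRC1, were higher in every *Myc*; sg*Kmt2c* line. *Bmi1* was at 18.9, 22.4 and 24.8 against 42.2, 27.1 and 38.3 RPKM (unadjusted p = 0.0273 from limma, adjusted p = 0.528) and *Ring1* at 6.40 ± 0.76 against 11.1 ± 2.8 RPKM (unadjusted p = 0.0320 from limma, adjusted p = 0.551). All 11 MLL1 and DOT1L regulators were tested as well, with 10 of 11 differences below 0, a median of -0.30 and 0 past the adjusted threshold (smallest adjusted p = 0.573, limma). Over all genes tested the median was -0.09. Of all genes tested without overlap, 1212 were lower and 665 higher in *Myc*; sg*Kmt2c*, so values below 0 were the more common direction. *Kmt2a*, which encodes MLL1, was at 20.2, 19.9 and 18.1 against 8.80, 19.6 and 13.7 RPKM. *Mllt10*, a DOT1L partner, was at 158 ± 12 against 119 ± 4 RPKM with no overlap (log2 -0.40, unadjusted p = 0.0429 from limma, adjusted p = 0.573). Its difference was -0.32 both after median-of-ratios scaling (unadjusted p = 0.0887, limma) and with limma voom on the recovered reads (unadjusted p = 0.110). *Psip1*, which tethers MLL1 to chromatin (log2 -0.87, adjusted p = 0.628, limma), and *Mllt3*, of the same elongation machinery as DOT1L (log2 -0.60, adjusted p = 0.692, limma), had overlapping lines. Without *Myc*; sg*Kmt2c* replicate 1 their differences were -0.47 and -0.37, and without its replicate 3 they were -1.36 and -0.98.

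Retinoic acid, the classical inducer of low-numbered HOX genes, acts through receptors that were transcribed here. Of 17 genes of its pathway 10 were tested, 0 passed the adjusted threshold (smallest adjusted p = 0.601, limma) and 0 had an unadjusted p under 0.05. *Rara* and *Rarg*, its receptors, were at 19.5 ± 9.8 against 22.9 ± 8.4 RPKM and 17.7 ± 13.7 against 26.5 ± 10.2 RPKM. *Dhrs3*, which turns retinal back to retinol, was at 14.9 ± 7.0 against 6.06 ± 3.61 RPKM (log2 -1.24, adjusted p = 0.601, limma), and at log2 -0.69 without *Myc*; sg*Kmt2c* replicate 1. *Aldh1a1*, which makes retinoic acid, was at 0.719, 0.732 and 3.04 RPKM against 25.4, 0.132 and 1.37 (log2 0.85, adjusted p = 0.816, limma), so its difference came from *Myc*; sg*Kmt2c* replicate 1.

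The lines also differed in markers of cell identity. Of 9 listed hepatocyte markers the summed level was 47.5, 21.5 and 70.1 RPKM in *Myc*; sg*Trp53* against 5615, 2.27 and 334 RPKM in *Myc*; sg*Kmt2c*. Nearly all of the 5615 RPKM was *Apob* (4385) and *Hnf4a* (1186), with *Alb* at 4.36 RPKM in that line. *Apob* and *Hnf4a* also made up most of the 334 RPKM, at 129 and 170. In reads, *Myc*; sg*Kmt2c* replicate 1 had 23099 for *Apob*, 2409 for *Hnf4a* and 42 for *Alb*. Fewer reads thus stood behind each RPKM of *Apob* and *Hnf4a* than of *Alb*. Their listed transcripts were shorter, which raises their weight in these sums. *Alb*, the albumin gene and defining marker, had 6 to 42 reads in each line, few for a gene that dominates liver RNA. *Myc*; sg*Kmt2c* replicate 2, with the most HOX reads, had the lowest hepatocyte sum, with 0 of the 9 markers at 10 reads. The 8 biliary and progenitor markers summed to 1695, 115 and 1505 against 7386, 322 and 926 RPKM. The 12 fibroblast and stellate markers summed to 18.7, 996 and 293 against 0.282, 156 and 121 RPKM. Most of the 996 RPKM was *Col3a1*, a fibrillar collagen, at 814 RPKM in *Myc*; sg*Trp53* replicate 2, a line with 7 HOX reads. *Col1a2*, *Pdgfrb* and *Pdgfra* were also highest in that line, at 114, 32.7 and 0.860 RPKM. *Col1a1*, *Acta2*, *Dcn*, *Thy1* and *Des* were instead highest in *Myc*; sg*Trp53* replicate 3, the line of that genotype with the most HOX reads (26), where 9 of the 12 fibroblast markers had at least 10 reads. There *Acta2*, a smooth muscle actin of activated stellate cells, was at 124 RPKM and *Col1a1* at 39.2 RPKM. In *Myc*; sg*Kmt2c* replicate 2, the line with the most HOX reads of all, *Acta2* was at 6.40 RPKM and *Col1a1* at 2.01 RPKM. The 4 mesothelial markers summed to 9.18, 6.38 and 27.8 against 93.5, 3.16 and 5.20 RPKM. The 93.5 RPKM was nearly all *Msln*, with 0 reads of *Wt1* and 1 of *Upk3b*. Both of these, a transcription factor and a surface protein of mesothelium, peaked in *Myc*; sg*Trp53* replicate 3 with 115 and 136 reads. *Upk3b* was at 1.44, 1.06 and 5.59 RPKM against 0.0601, 0.0768 and 0.199, with no overlap (log2 -1.53, unadjusted p = 0.0171 from limma, adjusted p = 0.481). The 6 immune markers summed to 17.8, 4.65 and 12.9 against 6.28, 5.29 and 2.79 RPKM. Among them *Csf1r*, a macrophage growth factor receptor, was at 10.0, 1.70 and 8.33 RPKM against 0.932, 0 and 0.967, again with no overlap (log2 -2.06, unadjusted p = 0.0122 from limma, adjusted p = 0.440). The 5 endothelial markers did not exceed 0.302 RPKM in sum. The other markers with the largest differences of their lists, *Hnf4a*, *Apob*, *Krt8*, *Epcam*, *Col1a1*, *Col1a2*, *Msln* and *Cd68*, had overlapping lines, and 0 markers passed the adjusted threshold (smallest adjusted p = 0.440, limma). The part of these cell identities, and of the deeper *Myc*; sg*Trp53* libraries, in the HOX counts was not tested.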

How the data were processed

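RNA was isolated from 6 mouse liver tumor-derived lines, 3 per genotype, and sequenced in the same lanes of a single flow cell. The authors removed adaptors with Trimmomatic, used STAR to align to GRCm38 and HTSeq to count, and deposited RPKM values (called FPKM in the methods). Each value divides by 1 transcript length for its gene and by the library's total on genes. Use of strand in counting is not given in the sources used here. Of 21065 rows, 209 had no values, and 6 columns of other samples were not used. The authors' DESeq2 (1.8.2) table of fold changes and p-values was not used.

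RPKM times length came in whole steps for 100% of values above 0 (within 0.1 of a read), giving 3680068 to 6878625 reads per library. Genotypes were compared with limma 3.58.1 in R 4.3.3 (lmFit, eBayes with trend) on log2(RPKM + 1), with genotype as the only term, for genes reaching 1 RPKM in 3 or more libraries. Benjamini-Hochberg adjustment covered every gene in the fit. The fit was tested on simulated data. Sums of reads were given exact Poisson 95% intervals, and a count of 0 was taken to allow 3 reads. Both cover counting error only. Permutation tests of single genes were exact and two-sided.

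The HOX genes and all gene lists were chosen with earlier results of these data known. Every HOX gene with an RPKM of at least 1 in a library was to be named with all its values, of which there were 0, and the others by counts and ranges. The genes named from each list, marker lists included, were those with an unadjusted p under 0.05 and the 2 with the largest log2 differences. A HOX gene and a cofactor are not reported singly here. *Col3a1*, *Acta2* and the other list genes printed, and the values of single HOX genes, were chosen after their values were seen. Promoter windows came from RefSeq (GRCm38.p6), with 1 window per gene. Alternatives changed the pseudocount, filter, scaling, moderation, test, block and lines. Python 3.11.15, scipy 1.17.1 and matplotlib 3.10.9 were used.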

Additional observations from a re-analysis of the deposited data

How the results depend on the processing

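With 0 HOX genes past the filter, the median and single log2 differences of tested HOX genes have no value in the main test, and 0 HOX genes were called under each alternative run. Only the alternative with no filter held HOX genes, 20 of them. In the others, the replicate block included, 0 HOX genes were tested, so 0 calls were fixed in advance. Genes called among all tested were 15 in the main test, 6 with a pseudocount of 0.1, 5 with no filter, 3 with limma voom on the recovered reads, and 0 both with the replicate block and with *Myc*; sg*Kmt2c* replicates 2 and 3, whose line names start alike, averaged. Leaving out a line gave 0 to 8. The replicate numbers were not taken as pairs in the main test. Deviations from the genotype mean correlated between same-numbered lines at 0.192, 0.399 and 0.0316. HOX genes whose genotypes did not overlap numbered 1 to 2 with a line left out, 2 without *Myc*; sg*Trp53* replicate 1 and 2 without its replicate 3, and 0 with an RPKM of at least 0.5 required in at least 2 libraries. Of all genes without overlap, 665 were higher and 1212 lower in *Myc*; sg*Kmt2c* as deposited, 905 and 960 after quantile normalization, 893 and 926 after median-of-ratios scaling, and 896 and 933 with voom. The cause was not tested.

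HOX genes with at least 3 reads in some line numbered 9, with 5 each in *Myc*; sg*Trp53* replicate 3 and *Myc*; sg*Kmt2c* replicate 2, and 0 genes reached 10 or 20 reads. Counting values of at least 3 reads left 7 HOXB, 4 HOXC and 0 HOXD reads, and values of at least 20 reads left 0 in HOXA, HOXB, HOXC and HOXD. The log2 difference reversed for *Aldh1a1* without *Myc*; sg*Kmt2c* replicate 1 (-0.49, range -0.49 to 1.79 over lines left out) and for *Igf2bp1* without its replicate 3 (0.21, range -1.42 to 0.21). *Cdx2* stayed between 1.34 and 2.31 over the alternatives, with adjusted p from 0.275 to 0.776 (limma). Depth limits all HOX values, since a change in a gene with under 3 reads per library cannot be seen here. The HOXB values with a line left out were added after the data were seen.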
